A study of Mus musculus with 31 samples.

Results

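The high-fat diet was examined in female mice that lack MuRF1, by comparing 3 knockout animals on the high-fat diet (f_ko_hfd) with 4 knockout animals kept on the standard diet (f_ko_chow). These 7 libraries are part of a series of 31 RNA-seq libraries of mouse gastrocnemius, a mixed calf muscle made mostly of fast fibres, that crosses MuRF1 genotype, sex and diet. The groups were read from the animal number: a library belongs to the group in the title that carries the animal number found in its own description. That group differs from the library's own title for 4 of the 31 libraries, and 1 of these is f_ko_chow replicate 4, whose own title reads f_wt_hfd. Each library has a different animal number, so the replicates are separate animals.

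All 7 animals are labelled female and MuRF1 -/-, a genotype given with no promoter, Cre or tissue restriction. All ate a vivarium chow from weaning. The 3 high-fat animals were moved at 8 weeks of age to a diet with 45% fat from lard, the 4 others stayed on chow, and all muscles were taken at 30 weeks. Beside them stand 8 female wild types (4 on each diet) and 7 male knockouts (4 on chow and 3 on high-fat diet) treated the same way. The labels give no hour of the day for the collection, no body weight and no litter.

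MuRF1, encoded by Trim63, is a muscle ubiquitin ligase that tags contractile proteins for the proteasome and is known for its rise when muscle wastes. A diet rich in fat shifts muscle toward burning fatty acids, partly through PPAR receptors that fatty acids activate. Muscle also runs a circadian clock, in which the activators BMAL1 (Arntl), CLOCK and NPAS2 drive their own repressors, the PER and CRY proteins, and so make many metabolic genes rise and fall over the day.

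Trim63 counts checked the genotype labels: it stood at 0.709 to 1.60 CPM (counts scaled to the library's total) in the 7 female knockouts and at 109 to 254 CPM in the 16 wild types. Total counts of the 7 libraries were 11280374 to 13796228, so that 3 counts, taken here as the detection floor, equal 0.217 to 0.266 CPM. The male-linked gene Ddx3y was at or below 0.757 CPM in all 7, and Xist, which marks female cells, was at 198 to 271 CPM on chow and at 67.7 to 123 CPM on the high-fat diet. The share of counts from mitochondrial DNA was 11.7% ± 0.787 (SD, n = 4) on chow and 8.15% ± 2.27 (SD, n = 3) on the high-fat diet, and the groups did not overlap (two-sided exact permutation test, p = 0.0571, the smallest p that 3 against 4 allows).

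In all, 3 of the 7 libraries stand apart, 1 over many genes and 2 by a skin gene, and they touch most results. Replicate 2 of f_ko_hfd was the library farthest from its group: of 12618 genes with a mean of at least 1 CPM, 1942 lay at least 1.5-fold above or below both other high-fat libraries, against 387 and 389 genes for replicates 1 and 3. It also had the lowest mitochondrial share, 5.55%. Set against all other chow libraries in the same way, chow replicates 1 to 4 had 138, 114, 202 and 262 such genes. By this measure replicates 1 and 3 did not stand out from replicate 4. Replicates 1 and 3 of f_ko_chow, together with 1 wild type library, held the skin gene Krt10 at 22.4, 47.4 and 23.7 CPM before TMM scaling, more than 10 times the median of 1.8 CPM over the libraries. Counts of changed genes are therefore also given without f_ko_hfd replicate 2 and without the libraries high in Krt10.

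Across 14024 genes tested with edgeR's quasi-likelihood test, 2688 genes passed a Benjamini-Hochberg adjusted p of 0.05 (19.2%), of which 1455 were higher on the high-fat diet (10.4%) and 1233 lower (8.79%). Of these, 417 differed by at least 2-fold (2.97%), and most of those were lower: 341 against 76 higher. Only 270 genes passed without f_ko_hfd replicate 2 and only 106 without the 3 libraries high in Krt10, and both of these fits have 2 animals in 1 of the 2 groups. After a correction for GC content, 1961 passed. Of the 2688 genes, 263 also passed, in the same direction, without f_ko_hfd replicate 2, and 65 passed in all 22 alternatives, 32 higher and 33 lower. The plot of calls by setting shows how unevenly the libraries carry the count. A high value here means a larger share of the muscle's RNA: in whole muscle, fewer cells of a type and less RNA per cell cannot be told apart.

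**Figure D1:**
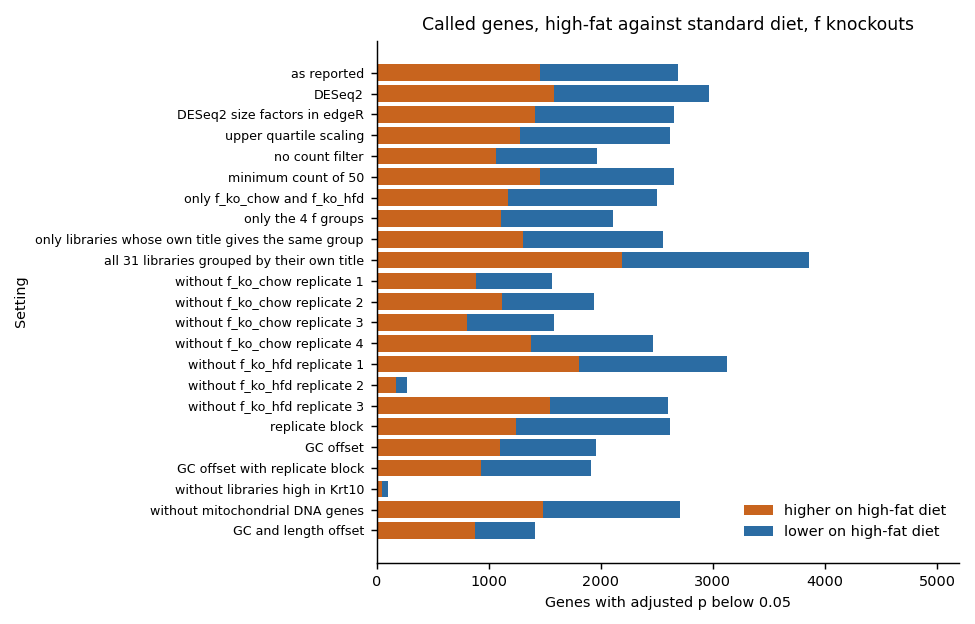
Number of genes with an adjusted p below 0.05 in the female knockouts (horizontal axis) under the reported setting and 22 alternatives (vertical axis), split into genes with higher (orange) and with lower (blue) levels under the high-fat diet. The count falls from 2688 to 270 without f_ko_hfd replicate 2 and to 106 without the 3 libraries high in Krt10.

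Genes of the circadian clock were among the largest differences. Of 13 core clock genes tested, 4 rose and 6 fell under the high-fat diet, 76.9% in all against 19.2% of all genes. For each of these 10 genes the diets did not overlap, as for 33.3% of all tested genes. The activators Arntl and Npas2 rose, and the repressors Per1, Per2, Per3, Ciart and Nr1d2 fell. The repressor Cry1 rose with the activators. Rora, a receptor that activates Arntl, fell by 0.83 on the log2 scale. Clock genes change over the day and the labels give no hour of collection. The part of the hour in these differences was therefore not tested.

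Arntl (chromosome 7, 113207465 to 113314126 in GRCm38), which encodes the activator BMAL1, stood at 10.2, 9.39, 9.65 and 12.4 TMM-scaled CPM in the 4 chow libraries and at 43.2, 38.1 and 43.0 in the 3 high-fat libraries. Every high-fat library was more than 3 times the highest chow library (log2 fold change 1.99, SE 0.39, adjusted p = 0.00333). Npas2, a partner of BMAL1, was near the detection floor on chow, at 0.211 to 0.465 CPM, and at 2.90, 3.13 and 2.29 CPM on the high-fat diet (adjusted p = 0.00456). Clock, the other partner, was not called (log2 fold change -0.28, SE 0.19, adjusted p = 0.291).

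The repressors showed the opposite order. Per3 was held within 51.7 to 53.1 CPM in the 4 chow libraries and fell to 19.5, 15.3 and 20.1 CPM (log2 fold change -1.51, SE 0.24, adjusted p = 0.000554). Per2 was at 18.8, 21.4, 23.9 and 18.8 CPM on chow and at 5.88, 2.58 and 4.76 CPM on the high-fat diet (log2 fold change -2.22, SE 0.40, adjusted p = 0.00161). Per1 ranged from 45.9 to 66.1 CPM on chow and from 12.7 to 17.9 CPM on the high-fat diet (log2 fold change -1.83, SE 0.38).

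More repressors of the loop fell with them. Ciart, which blocks the CLOCK and BMAL1 pair, was at 11.9, 8.11, 8.88 and 13.4 CPM on chow and at 1.88, 1.29 and 1.85 CPM on the high-fat diet (log2 fold change -2.65, SE 0.63, adjusted p = 0.00767). Nr1d2, a nuclear receptor that represses Arntl, was at 145 to 155 CPM on chow and at 59.5 to 79.0 CPM on the high-fat diet (log2 fold change -1.05, SE 0.19). Its close relative Nr1d1 overlapped between the diets (log2 fold change -0.16, SE 0.28, adjusted p = 0.71). Cry1 was at 12.6, 14.0, 13.4 and 14.4 CPM on chow and at 24.6, 24.4 and 22.4 CPM on the high-fat diet (log2 fold change 0.81, SE 0.14, adjusted p = 0.000625).

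Genes that the clock drives moved too. Of 15 clock output genes tested, 3 were higher and 7 lower, 66.7% in all against 19.2% of all genes. Dbp (chromosome 7, 45705088 to 45710203), a transcription factor that follows the clock closely, was at 94.8, 96.5, 89.3 and 104 CPM on chow and at 12.2, 13.4 and 13.8 CPM on the high-fat diet (log2 fold change -2.87, SE 0.65, adjusted p = 0.00668). The 2 groups lay more than 6-fold apart, with little spread inside either. Nfil3, which represses the same target sites that DBP activates, went the other way, from 10.5 to 12.6 CPM on chow to 36.0, 48.9 and 37.5 CPM (log2 fold change 1.81, SE 0.32). Hlf and Tef, relatives of Dbp, fell by 1.09 and 0.33 on the log2 scale. Of the output genes, 2 stayed higher and 1 lower without f_ko_hfd replicate 2, and without the libraries high in Krt10 only Hlf was called, lower.

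The clock differences held their size without the libraries that stand apart, though several lost the call. Arntl differed by 2.05 on the log2 scale without f_ko_hfd replicate 2 (adjusted p = 0.0208) and by 1.93 without the libraries high in Krt10 (adjusted p = 0.0745). Dbp differed by -2.88 (adjusted p = 0.0621) and -2.93 (adjusted p = 0.0693), and Per2 by -1.96 (adjusted p = 0.0296) and -2.18 (adjusted p = 0.034). Of the 13 core genes, 3 stayed higher and 3 lower without replicate 2, and 1 higher (Cry1) and 3 lower (Per2, Per3 and Nr1d2) without the libraries high in Krt10. Per3, Cry1 and Nr1d2 passed in all 22 alternatives.

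**Figure D2:**
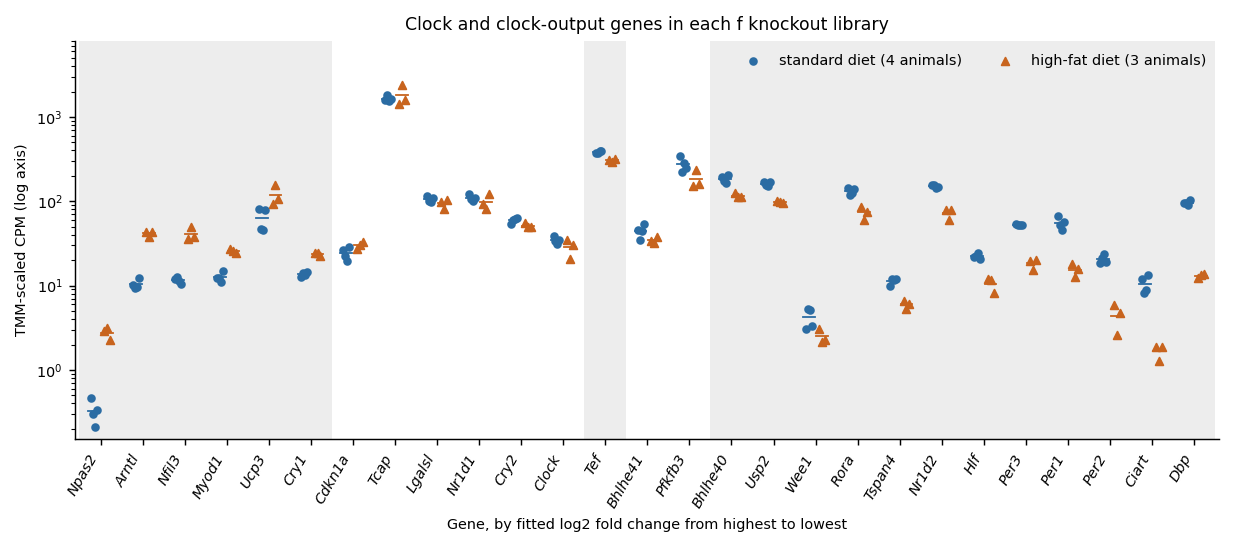
TMM-scaled CPM on a log axis (vertical) of 27 of the 28 clock and clock-output genes tested (horizontal), 1 point for each library, with blue circles for the 4 chow libraries, orange triangles for the 3 high-fat libraries and short lines for group means. Grey bands mark genes with an adjusted p below 0.05; Arntl and Nfil3 sit higher in all 3 high-fat libraries, and Dbp, Ciart and Per2 lower.

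The promoters of 4 of these genes are shown because they hold letters that clock factors are known to bind. The windows run from 250 bases before to 50 bases after the annotated start in RefSeq (GRCm38.p6), 5′ to 3′ on the gene's own strand. Capitals mark the E-box CACGTG, bound by BMAL1 with CLOCK or NPAS2, and the D-box TTATGTAA, bound by DBP, HLF, TEF and NFIL3. The windows are chr3:95882179-95882478 on the minus strand (Ciart), chr10:85185005-85185304 on the minus strand (Cry1), chr11:69098699-69098998 on the plus strand (Per1) and chr4:151044616-151044915 on the minus strand (Per3).
Ciart: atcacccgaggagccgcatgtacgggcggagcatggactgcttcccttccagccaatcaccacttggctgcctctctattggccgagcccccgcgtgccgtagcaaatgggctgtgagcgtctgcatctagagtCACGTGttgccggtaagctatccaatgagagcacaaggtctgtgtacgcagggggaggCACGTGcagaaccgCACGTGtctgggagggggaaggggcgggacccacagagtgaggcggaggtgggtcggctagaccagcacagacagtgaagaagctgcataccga
Cry1: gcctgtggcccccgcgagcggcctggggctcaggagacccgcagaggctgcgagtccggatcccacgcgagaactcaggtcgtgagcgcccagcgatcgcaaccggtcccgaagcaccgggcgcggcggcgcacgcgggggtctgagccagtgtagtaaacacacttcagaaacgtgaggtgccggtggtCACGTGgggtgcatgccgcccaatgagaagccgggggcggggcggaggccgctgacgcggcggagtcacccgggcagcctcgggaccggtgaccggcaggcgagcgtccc
Per1: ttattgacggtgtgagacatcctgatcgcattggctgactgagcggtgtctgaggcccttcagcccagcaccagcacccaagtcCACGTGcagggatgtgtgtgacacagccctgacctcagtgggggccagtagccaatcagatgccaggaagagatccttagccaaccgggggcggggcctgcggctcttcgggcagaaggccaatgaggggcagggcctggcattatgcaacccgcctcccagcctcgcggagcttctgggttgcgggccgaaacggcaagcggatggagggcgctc
Per3: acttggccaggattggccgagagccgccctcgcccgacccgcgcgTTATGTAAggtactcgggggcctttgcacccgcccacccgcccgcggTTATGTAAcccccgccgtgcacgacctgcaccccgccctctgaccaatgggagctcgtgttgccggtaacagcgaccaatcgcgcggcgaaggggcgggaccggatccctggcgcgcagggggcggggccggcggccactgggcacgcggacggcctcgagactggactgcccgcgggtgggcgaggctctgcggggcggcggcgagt

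Ciart, 1 of the deepest decreases, holds 3 E-boxes in its window, while Cry1, which rose, and Per1, which fell, hold 1 each. Per3 holds no E-box but 2 D-boxes. Both strands were searched, and no motifs overlap in the printed windows. The E-box is in 7.15% of all 32851 windows of the table, in 11.7% of the 10384 tested genes with a window, and in 7 of the 22 clock genes with a window. The D-box is in 0.938% of all windows and in 1 of the 22. Arntl, Dbp, Npas2 and Nfil3 have neither in these windows, and no clock window holds a DR1, a pair of AGGTCA half-sites in tandem with 1 base between them. A match is a description of letters and not a measured site.

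In female wild types on the same diets, 1 core clock gene was called higher and 3 were called lower of 13, and 1 of the 15 output genes was higher, Tcap. The 3 lower were Clock, Rora and Nr1d2. Nr1d2 went from 108 ± 13.7 CPM on chow to 75.9 ± 27.6 CPM on the high-fat diet (SD, n = 4 each; log2 fold change -0.51, adjusted p = 0.0269), close to the 72.3 CPM mean of the knockouts on the same diet. Per2 and Hlf were also near the knockout level on the high-fat diet, at 5.94 and 10.25 CPM against 4.41 and 10.6, but on chow they were at 6.32 and 12.3 CPM against 20.7 and 22.5 in the knockouts. Their wild type diet differences were not called (adjusted p = 0.818 and 0.223). Arntl was at 29.3 ± 5.26 CPM on chow and at 30.7 ± 9.13 CPM on the high-fat diet (SD, n = 4 each), between the 2 knockout groups. Dbp was at 45.3 ± 14.9 CPM and 31.6 ± 29.7 CPM, with a wide spread on the high-fat diet. It was also not called for Arntl (log2 fold change 0.08, adjusted p = 0.895) or Dbp (log2 fold change -0.55, adjusted p = 0.481). The difference between the 2 genotypes in the diet effect was not called for any clock gene, so the diet effects are not shown to differ (adjusted p of the interaction 0.533 for Arntl and 0.913 for Dbp). In male knockouts Arntl was at 15.8 ± 13.2 CPM (SD, n = 4) on chow and at 15.7 ± 8.02 CPM (SD, n = 3) on the high-fat diet.

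Outside the clock, the strongest increases included genes of glycogen storage and fuel choice. Ppp1r3c (chromosome 19, 36731731 to 36736653), which brings a phosphatase to glycogen and favours its storage, was at 220, 227, 231 and 250.5 CPM on chow and at 603, 716 and 562 CPM on the high-fat diet (log2 fold change 1.43, SE 0.18, adjusted p = 3.66e-05). Every high-fat library lay above every chow library, and Ppp1r3c passed in all 22 alternatives.

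Pdk4, which slows glucose oxidation and is a classic PPAR target, varied widely on chow. It was at 269, 144, 103 and 378 CPM on chow and at 706, 823 and 572 CPM on the high-fat diet (log2 fold change 1.65, SE 0.41, adjusted p = 0.00968). Each high-fat library lay above the highest chow library. Without f_ko_hfd replicate 2 the log2 fold change was 1.52 (adjusted p = 0.0805). Lrrc30, a muscle gene of little-known function, was at 64.7 to 71.6 CPM on chow and at 176 to 219 CPM on the high-fat diet (log2 fold change 1.51, SE 0.21, adjusted p = 0.000127).

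The other large increases were in genes of low level. Erfe, a hormone gene of muscle and red cell precursors, was at 0.0775 to 0.423 CPM on chow, close to the floor, and at 1.28, 1.10 and 2.12 CPM on the high-fat diet. Tmem132b, Foxs1 and Odf3l2 also rose, by 1.85, 1.44 and 1.35 on the log2 scale. Col24a1, a fibrillar collagen gene, was at 6.27 to 8.91 CPM on chow and at 20.0, 11.5 and 24.2 CPM on the high-fat diet (log2 fold change 1.38, SE 0.26). Its lowest high-fat value was in replicate 2.

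Of 22 muscle ubiquitin ligases tested, which tag other proteins for breakdown, 5 were higher and 1 lower in these animals that lack MuRF1. Higher calls were 22.7% of the list against 10.4% of all genes, and lower calls 4.55% against 8.79%. Fbxo32 (atrogin-1; chromosome 15, 58175879 to 58214932), the other classic ligase of wasting muscle, was at 274, 282.5, 222 and 253 CPM on chow and at 471, 621 and 538 CPM on the high-fat diet. Its groups did not overlap (log2 fold change 1.07, SE 0.17, adjusted p = 0.000562). Asb2, a ligase subunit that targets filamins, was at 419 to 566 CPM on chow and at 1102, 1097 and 1163 CPM on the high-fat diet (log2 fold change 1.17, SE 0.17, adjusted p = 0.000274). Fbxo32 and Asb2 passed in all 22 alternatives and were the 2 ligases called without f_ko_hfd replicate 2 and without the libraries high in Krt10.

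The remaining ligases moved less. Trim54 (MuRF3), a relative of MuRF1, rose from 135 to 158 CPM on chow to 202, 251 and 186 CPM (log2 fold change 0.52, SE 0.13). Stub1 and Fbxo40 rose by 0.58 and 0.25 on the log2 scale. Nedd4 fell by 0.44 on the log2 scale. Trim63 itself was not called (log2 fold change 0.10, SE 0.81, adjusted p = 0.943), at the residual level of the knockout.

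Of 33 proteasome subunits, 14 were higher (42.4%, against 10.4% of all genes) and none lower. Their median log2 fold change was 0.32 against -0.00 over all genes, and 0.20 after correction for GC content and transcript length. Psmc4, an ATPase in the base of the proteasome's regulatory particle, was at 57.5 to 65.1 CPM on chow and at 75.0, 109 and 83.8 CPM on the high-fat diet (log2 fold change 0.55, SE 0.12). Psmb5, a catalytic subunit, was at 46.5 to 58.7 CPM and at 72.5, 104 and 67.6 CPM. The highest value of both was in f_ko_hfd replicate 2, and without that library, or without the libraries high in Krt10, no subunit was called.

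Of 16 contractile genes of fast fibres tested, 12 were higher (75%, against 10.4% of all genes) and none lower. Their median log2 fold change was 0.52, or 0.27 with both corrections. None of 16 slow-fibre genes was called, with a median of -0.06. Casq1, which stores calcium in fast fibres, was at 1983 to 2229 CPM on chow and at 3104, 3862 and 3339 CPM on the high-fat diet (log2 fold change 0.70, SE 0.12, adjusted p = 0.000802). Pvalb, the calcium buffer of the fastest fibres, was at 7106 to 7910.0 CPM on chow (log2 fold change 0.86, SE 0.17, adjusted p = 0.00254). Atp2a1, the fast calcium pump, rose by 0.54 on the log2 scale, and its smallest high-fat value was in replicate 2.

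The calls of fast-fibre genes depended on few libraries: 2 of the 16 (Casq1 and Atp2a1) were called without f_ko_hfd replicate 2 and 1 (Casq1) without the libraries high in Krt10. Log2 fold changes of slow-fibre genes had both signs, from -0.64 for Casq2 to 0.80 for Sln on the log2 scale. Casq2, the slow and cardiac calsequestrin, was at 56.7 to 72.3 CPM on chow and at 43.9, 41.6 and 34.0 CPM on the high-fat diet (adjusted p = 0.068).

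Glycolysis and glycogen genes had 12 of 26 members higher (46.2%, against 10.4% of all genes) and none lower. Their median log2 fold change was 0.31, or 0.15 with both corrections. Pkm, the last step of glycolysis, was at 2552 to 2824 CPM on chow and at 4070.0, 4847 and 3988 CPM on the high-fat diet (log2 fold change 0.68, SE 0.11, adjusted p = 0.000625). Pgam2, the muscle phosphoglycerate mutase, was at 1099 to 1178 CPM on chow and at 1604, 2825 and 1751 CPM on the high-fat diet, with replicate 2 far above the other 2. Pygm, which breaks down glycogen, rose by 0.60 on the log2 scale, and Aldoa by 0.76. Without f_ko_hfd replicate 2, 5 of the 26 were called, and without the libraries high in Krt10 only Pkm.

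Nuclear genes of oxidative phosphorylation had 18 of 35 members higher (51.4%, against 10.4% of all genes) and none lower. Their median log2 fold change was 0.41, or 0.23 with both corrections. Cox5b, a subunit of complex IV, was at 164 to 199 CPM on chow and at 241, 386 and 237 CPM on the high-fat diet (log2 fold change 0.64, SE 0.15, adjusted p = 0.00615). Atp5d, of the ATP synthase, was at 188 to 236.5 CPM and at 280.5, 459 and 296 CPM. In both, replicate 2 was the highest library, and no gene of the list was called without it or without the libraries high in Krt10. The log2 fold change of Cox5b was 0.38 without replicate 2 (adjusted p = 0.162).

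Genes of the mitochondrial DNA did not pass the test. None of 13 was called, and their median log2 fold change was -0.37. mt-Nd5, a subunit of complex I, was at 9042 to 11570.0 CPM on chow and at 7539, 2555 and 5942 CPM on the high-fat diet, with replicate 2 the lowest (log2 fold change -0.97, SE 0.41, adjusted p = 0.0903). mt-Co1 overlapped between the diets (log2 fold change -0.38, SE 0.22). The list's median was -0.05 after the GC correction and -0.24 after correction for both GC content and length.

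**Figure D3:**
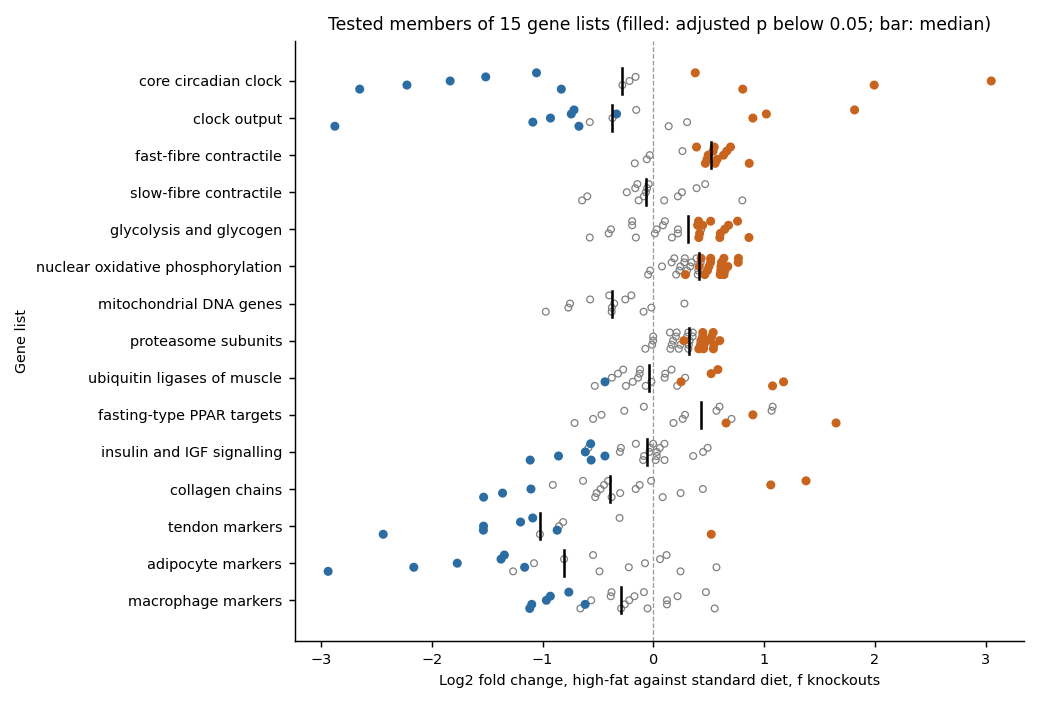
Log2 fold change of high-fat against standard diet in the female knockouts (horizontal axis) for each tested member of 15 gene lists (vertical axis); filled points have an adjusted p below 0.05, orange higher and blue lower, open points do not, and black bars are list medians. Fast-fibre genes have a median of 0.52, mitochondrial DNA genes of -0.37 and tendon markers of -1.02, while the clock lists spread to both sides.

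Genes of fatty acid use moved in few members. Of 16 fasting-type PPAR targets, 3 were higher (Pdk4, Mlycd and Ucp3) and none lower, with a median log2 fold change of 0.43, or 0.21 with both corrections. The 3 are 18.8% of the list, against 10.4% of all genes called higher and 19.2% called in either direction. Ucp3, a mitochondrial carrier, was at 81.8, 47.3, 45.2 and 78.8 CPM on chow and at 91.8, 156 and 106 CPM on the high-fat diet (log2 fold change 0.90, SE 0.29, adjusted p = 0.0354). Of 19 genes of mitochondrial beta-oxidation, 3 were higher (Crat, Etfb and Acads) and 1 lower. That is 21.1% in all, near the 19.2% of all genes. Higher calls were 15.8%, against 10.4% of all genes, and lower calls 5.26%, against 8.79%. Crat, which buffers acetyl groups as acetylcarnitine, was at 441 to 523 CPM on chow and at 625, 646 and 601 CPM on the high-fat diet (log2 fold change 0.34, SE 0.09).

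None of these calls was kept without f_ko_hfd replicate 2 or without the libraries high in Krt10, nor were those of the next list. Of 25 genes of fatty acid synthesis, 2 were higher (Me1 and Mlxipl) and 1 lower (12% in all, under the 19.2% of all genes), Acaca, which makes malonyl-CoA. Acaca was at 36.0, 66.9, 93.6 and 24.5 CPM on chow and at 27.4, 16.4 and 33.9 CPM on the high-fat diet, so its groups overlapped (log2 fold change -1.09, SE 0.32, adjusted p = 0.0213). Of 21 regulators of nuclear and mitochondrial genes, 1 was higher and 4 lower, 23.8% in all against 19.2% of all genes. Lower calls were 19% of this list, against 8.79% of all genes, and higher calls 4.76%, against 10.4%. Ppara, a fatty acid receptor, was at 13.2, 17.7, 13.7 and 8.84 CPM on chow and at 6.14, 1.66 and 4.58 CPM on the high-fat diet (log2 fold change -1.68, SE 0.39, adjusted p = 0.00685), with a log2 fold change of -1.31 without replicate 2 (adjusted p = 0.0862) and -1.67 without the libraries high in Krt10 (adjusted p = 0.078). Nrip1, a corepressor of oxidative genes, fell by 1.17 on the log2 scale. Without replicate 2, 1 of the 21 was called, and without the libraries high in Krt10 none.

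Of 24 insulin and growth factor signalling genes, 6 were lower (25%, against 8.79% of all genes) and none higher. Igf1, the muscle's own growth factor, was at 20.5, 20.4, 27.7 and 17.1 CPM on chow and at 11.1, 8.01 and 10.6 CPM on the high-fat diet (log2 fold change -1.11, SE 0.24, adjusted p = 0.00432). Its receptor gene Igf1r and the insulin receptor gene Insr fell by 0.86 and 0.44 on the log2 scale. Tbc1d4, which insulin signalling inactivates to let GLUT4 reach the surface, fell by 0.56, and Pik3r1, a regulatory subunit of PI3 kinase, by 0.61. No gene of the list was called without f_ko_hfd replicate 2 or without the libraries high in Krt10. After correction for GC content and transcript length, 2 were higher and 1 lower.

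Of 27 genes responsive to glucocorticoids or FoxO factors, 1 was higher (Fbxo32) and 4 lower, among them Per1. That is 18.5% in all, near the 19.2% of all genes. Lower calls were 14.8%, against 8.79% of all genes, and higher calls 3.7%, against 10.4%. Without f_ko_hfd replicate 2, 1 was higher and 2 lower, and without the libraries high in Krt10, 1 and 1. Klf9, a target of the glucocorticoid receptor, was at 113 to 134 CPM on chow and at 75.9, 44.0 and 74.0 CPM on the high-fat diet. It passed in all 22 alternatives (log2 fold change -0.91, SE 0.15, adjusted p = 0.000563).

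Some markers of tendon, fat and resident macrophages were called lower on the high-fat diet, a majority of the list for tendon alone. Of 11 tendon markers, 6 were lower (54.5%, against 8.79% of all genes) and 1, Tppp3, higher. Their summed level was 426 to 632 CPM on chow and 262 to 307 CPM on the high-fat diet. Kera, a proteoglycan gene of tendon and cornea, was at 17.3, 11.6, 18.0 and 13.1 CPM on chow and at 3.92, 2.30 and 2.03 CPM on the high-fat diet (log2 fold change -2.44, SE 0.49, adjusted p = 0.00321). Tnmd, which marks tendon cells, was at 9.46 to 13.9 CPM on chow and at 4.26, 2.85 and 4.23 CPM on the high-fat diet. Without f_ko_hfd replicate 2, 1 of the 11 was called lower, and without the libraries high in Krt10 none.

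Of 17 adipocyte markers, 6 were lower (35.3%, against 8.79% of all genes) and none higher. Their median log2 fold change was -0.81, or -0.996 with both corrections. All high-fat libraries lay below all chow libraries for 9 of the 17, against 17.2% of all genes. They lay above for 1, against 16.1%. The summed level, which follows the most abundant members, still overlapped, at 5116 to 5964 CPM on chow and 5850.0 to 5998 CPM on the high-fat diet. Adrb3, the adipocyte adrenergic receptor, was at 6.12, 5.18, 8.17 and 3.85 CPM on chow and at 1.53, 1.10 and 1.23 CPM on the high-fat diet (log2 fold change -2.16, SE 0.43, adjusted p = 0.00261). Pck1, which feeds glycerol synthesis in fat cells, was at 26.1, 10.4, 26.6 and 8.10 CPM on chow and at 1.11 to 4.42 CPM on the high-fat diet. Its 2 highest chow values were in replicates 1 and 3, the libraries high in Krt10, and its log2 fold change was -1.99 without them (adjusted p = 0.114). Cyp2e1, an enzyme gene of liver and fat outside the lists, was at 62.0, 37.5, 83.3 and 27.7 CPM on chow and at 5.28, 6.26 and 6.08 CPM on the high-fat diet, again highest in those 2 (log2 fold change -3.16, SE 0.56, adjusted p = 0.00185). Without them its log2 fold change was -2.47 (adjusted p = 0.0508), and it was between -3.37 and -2.86 in the other alternatives, where it was called.

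Of the adipocyte markers, 3 (Adrb3, Pparg and Pck1) were called without f_ko_hfd replicate 2 and none without the libraries high in Krt10. Acvr1c and Sema3d, 2 further large decreases, fell by 2.25 and 2.16 on the log2 scale. Their high-fat values, 0.276 to 0.938 and 0.184 to 0.970 CPM, came near the detection floor. Both were highest in chow replicates 1 and 3. Neither was called without f_ko_hfd replicate 2 or without the libraries high in Krt10.

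Of 21 macrophage markers, 6 were lower (28.6%, against 8.79% of all genes) and none higher. Their median log2 fold change was -0.29, or -0.49 with both corrections. All high-fat libraries lay below all chow libraries for 10 of the 21, against 17.2% of all genes. They lay above for 2, against 16.1%. The summed levels of the list overlapped, at 419 to 497 CPM on chow and 406 to 438 CPM on the high-fat diet. F13a1, of tissue-resident macrophages, was at 28.7 to 38.4 CPM on chow and at 18.8, 12.7 and 14.4 CPM on the high-fat diet (log2 fold change -1.10, SE 0.24, adjusted p = 0.00467). Lyve1 and Cd163, 2 markers of the same cells, fell by 1.12 and 0.76 on the log2 scale. No macrophage marker was called without f_ko_hfd replicate 2 or without the libraries high in Krt10.

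Matrix genes gave few calls. Of 20 collagen chains, 2 were higher (Col24a1 and Col5a3) and 3 lower, 25% in all against 19.2% of all genes. Col5a3 was at 26.0 to 31.1 CPM on chow and at 57.0, 61.5 and 60.6 CPM on the high-fat diet (log2 fold change 1.06, SE 0.30, adjusted p = 0.0178). Col14a1, a collagen of fibre surfaces, was at 22.1 to 34.3 CPM on chow and at 14.8, 9.02 and 13.4 CPM on the high-fat diet (log2 fold change -1.10, SE 0.28). Of 30 other matrix genes, 2 were lower, Timp3 and Thbs4 (6.67%, against 8.79% of all genes). Of 16 markers of fibro-adipogenic progenitors 2 were lower, Dpp4 and Cd34 (12.5%). None of either list was called higher, and the median log2 fold changes were -0.35 and -0.36. All high-fat libraries lay below all chow libraries for 16 of the 30 and 7 of the 16, against 17.2% of all genes. They lay above for 0 and 2, against 16.1%. Only Col24a1 and Timp3 of these lists were called without f_ko_hfd replicate 2, and without the libraries high in Krt10 none.

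Other cell types contributed few calls. Of 19 endothelial markers, 1 was higher (Cldn5) and 2 lower (Flt1 and Emcn). Of 11 pericyte and smooth muscle markers 1, Des, was higher, and Des is also a muscle fibre gene. Of 3 lymphocyte markers tested, Ighm was higher. None of 12 Schwann cell markers, and none of 6 red blood cell markers, was called. Of 29 interferon-responsive genes, 2 were lower, Gbp7 among them. Calls were 15.8% of the endothelial, 9.09% of the pericyte and smooth muscle, 33.3% of the lymphocyte and 6.9% of the interferon-responsive genes. The share over all genes was 19.2%. Of these calls, Cldn5 alone was kept without f_ko_hfd replicate 2 and none without the libraries high in Krt10.

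The 3 keratinocyte markers called lower rest on 2 chow animals. Krt10 was at 20.6, 1.65, 41.7 and 1.62 CPM on chow and at 1.36, 2.30 and 1.15 CPM on the high-fat diet. Dsp, a desmosome gene, was at 7.59 and 15.7 CPM in chow replicates 1 and 3 and at 0 in all 5 other libraries. The summed level of the 14 keratinocyte markers tested was 14.5 to 143 CPM on chow and 14.5 to 16.7 CPM on the high-fat diet. The part of these other cells in the muscle results was not tested.

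Stress and breakdown lists had 16.7% to 28.6% of members called, against 19.2% of all genes, and most of these calls were higher. Higher calls were 25% of heat shock, 23.8% of ATF4, 20% of antioxidant and 20% of polyamine genes, against 10.4% of all genes. Of 20 heat shock genes, 5 were higher and none lower, with Bag3, a chaperone partner that clears damaged filamin, at 100.1 to 125.5 CPM on chow and at 175, 185 and 172 CPM on the high-fat diet (log2 fold change 0.67, SE 0.11, adjusted p = 0.000625). Of 21 ATF4 targets, 5 were higher and 1 lower, and of 25 antioxidant genes 5 were higher, Srxn1 and Gstm1 among them. Of 24 autophagy and lysosome genes, 3 were higher (Tfeb, Map1lc3a and Sqstm1) and 1 lower. The 3 are 12.5% of the list, against 10.4% of all genes called higher. Of 15 polyamine genes, 3 were higher: Oaz1, Oaz2 and Dhps. Bag3 and 1 ATF4 target were the members of these 5 lists still called without f_ko_hfd replicate 2, and without the libraries high in Krt10 none was.

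Of 19 satellite cell and myogenic genes, 4 were higher and 1, Vcam1, lower. Sdc4, a surface proteoglycan of satellite cells, was at 15.2, 19.0, 19.4 and 16.4 CPM on chow and at 36.0, 47.0 and 30.4 CPM on the high-fat diet, and it passed in all 22 alternatives (log2 fold change 1.11, SE 0.16, adjusted p = 0.000127). Myod1, a myogenic factor that is also a clock output, was at 10.9 to 15.1 CPM on chow and at 26.9, 25.8 and 24.2 CPM on the high-fat diet. Of 23 genes of the nerve-muscle junction, 3 were higher, Chrne among them, and 2 lower, Lrp4 among them. Of 11 developmental muscle genes, 3 were higher: Myl4, Mybph and Actc1. Of 20 sarcomere structure genes, Des was higher and Neb and Cmya5 lower. Called members were 26.3%, 21.7%, 27.3% and 15% of these 4 lists, in this order, against 19.2% of all genes. Higher calls were 21.1%, 13%, 27.3% and 5%, against 10.4% of all genes. The calls kept in these 4 lists were Sdc4, Myod1 and Mybph without f_ko_hfd replicate 2, and without the libraries high in Krt10 Sdc4 and Vcam1.

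The diet difference of the female knockouts resembled that of the female wild types, which share no animal with them. In the wild types 3558 genes were called (25.4%), and 1664 genes were called in both genotypes, 61.9% of the knockout calls and 46.8% of the wild type calls. All 1664 had the same sign. Across the 14024 genes, which are not independent, the 2 sets of log2 fold changes had a Pearson r of 0.731 and a Spearman rho of 0.715, as a description.

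Only 2 genes (0.0143%) passed the test of a different diet effect in the 2 female genotypes, and 662 had an unadjusted p below 0.05. Ppp1r3c differed by 1.43 on the log2 scale between diets in the knockouts and by 0.09 in the wild types, which were at 446 ± 109 CPM on chow and 473 ± 94.9 CPM on the high-fat diet (SD, n = 4 each; adjusted p of the interaction 0.0482). The knockouts on chow, at 232 ± 13.1 CPM, were the lowest of these 4 groups, and the knockouts on the high-fat diet, at 562 to 716 CPM, the highest. Leo1, of a complex that travels with RNA polymerase, was at 19.6 ± 0.672 CPM in the knockouts on chow and 33.4 ± 4.54 CPM on the high-fat diet, and at 26.3 ± 1.46 and 24.2 ± 2.30 CPM in the wild types (adjusted p 0.0482). Neither interaction was called when any 1 of the 7 knockout libraries was left out, while DESeq2 called 18 genes.

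In male knockouts the same diet went with the opposite sign for most of these genes. Of the 2688 genes called in the females, 2513 had the opposite sign in the males, where 818 genes were called (5.83%). Over all 14024 genes the log2 fold changes of the 2 sexes also ran opposite, with a Spearman rho of -0.617, as a description. Of 366 genes called in both, 8 had the same sign. The difference between the sexes was called for 4800 genes (34.2%), among them 2418 of the 2688. Without f_ko_hfd replicate 2 it was called for 2812 genes, and without the libraries high in Krt10 for 2849. After correction for GC content it was called for 4338 genes, and for 3399 after correction for GC content and length. Of those 3399, 2278 were among the 4800.

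Mybph, a myosin-binding protein gene, was at 164 ± 26.3 CPM on chow and 322 ± 68.2 CPM on the high-fat diet in the females, and at 60.3 ± 5.36 CPM and 14.9 ± 4.05 CPM in the males (log2 difference of diet effects 2.99, SE 0.36, adjusted p = 2.05e-05). Ddr2, a collagen receptor, fell from 49.2 ± 3.00 to 22.4 ± 3.90 CPM in the females and rose from 14.8 ± 6.22 to 31.6 ± 4.25 CPM in the males. Cyp2e1 fell by 3.16 on the log2 scale in the female knockouts and by 2.50 in the female wild types, and was 3.02 higher in the male knockouts on the high-fat diet. The plot of diet differences in the other groups shows both relations.

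**Figure D4:**
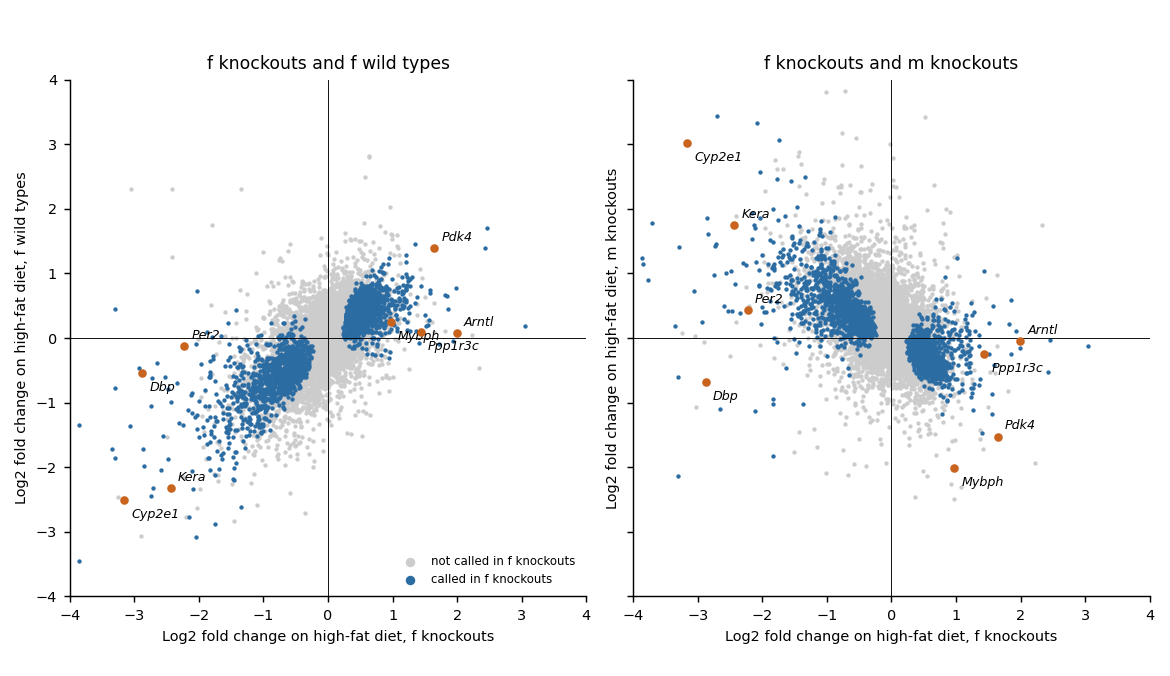
Log2 fold change of high-fat against standard diet in female knockouts (horizontal axes) and in female wild types (left, vertical axis) or male knockouts (right, vertical axis), 1 point for each of 14024 genes, blue where called in the female knockouts; 36 and 35 genes lie beyond the axes. Points rise from lower left to upper right on the left and fall on the right, while Arntl lies near 0 on both vertical axes.

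The diet difference also followed the base composition of the genes. Over 5 equal groups of genes by GC content of their exons, the median log2 fold change rose from -0.25 in the lowest to 0.24 in the highest, with 22 genes higher and 532 lower in the lowest group and 640 higher and 36 lower in the highest. The Spearman rho over genes was 0.408 with GC content and -0.455 with transcript length, as a description. A library's own GC measure is the level of its highest minus its lowest GC group on the log2 scale. It was -0.33 to -0.21 in the 4 chow libraries and 0.12, 0.36 and 0.13 in the 3 high-fat libraries. The groups did not overlap, with replicate 2 the highest (two-sided exact permutation test, p = 0.0571, the smallest possible). The wild types showed the same slope and the male knockouts the reverse one, as the plot by GC content shows.

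Correcting for GC content left 1961 genes called, of which 1371 were among the 2688, and correcting for both GC content and length left 1412, of which 825 were. The core clock counts hardly moved, to 3 higher and 6 lower of 13, and then to 3 and 5. Fast-fibre genes went from 12 to 8 and 6 of 16, proteasome subunits from 14 to 20 and 9 of 33, and nuclear oxidative phosphorylation genes from 18 to 19 and 13 of 35. Neb and Cmya5, which encode giant proteins of the sarcomere and have long transcripts, fell in the reported fit and were at 0.07 each with both corrections. The part of GC content and length in the diet difference was not tested beyond these corrections.

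**Figure D5:**
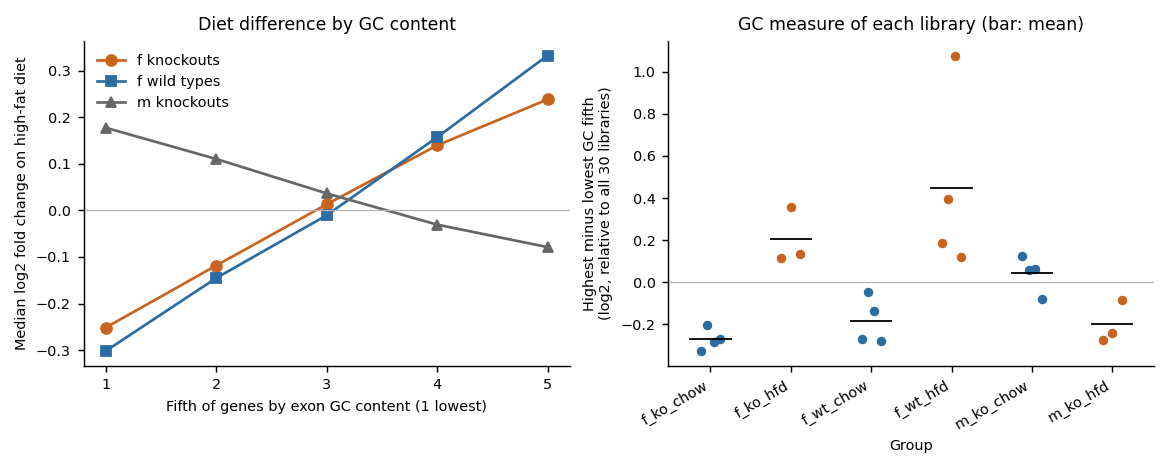
Left, median log2 fold change on the high-fat diet (vertical axis) in 5 groups of genes from the lowest to the highest exon GC content (horizontal axis), for female knockouts, female wild types and male knockouts; right, each library's highest minus lowest GC group (log2, vertical axis) by group, blue for chow and orange for high-fat, bars for means. The female knockout medians rise from -0.25 to 0.24, and the 3 f_ko_hfd libraries lie above 0 while the 4 f_ko_chow libraries lie below.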

How the data were processed

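RNA of whole gastrocnemius was made into polyA-selected, stranded libraries, per the labels' protocols. The deposited files hold read counts for 39017 gene identifiers in each of 31 libraries, made by the authors with featureCounts on mm10, per the submitters' processing notes. The sources used here do not name the aligner, the annotation or the strand setting. Positions and symbols came from GENCODE M21 (GRCm38). Groups came from animal numbers, and 1 library whose number no title carries was not used.

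Counts of 30 libraries in 8 groups were fitted together with edgeR 4.0.16 (R 4.3.3): genes with enough reads at a minimum count of 10, TMM scaling, a quasi-likelihood test of each contrast, and Benjamini-Hochberg adjustment over 14024 genes at 0.05. Printed CPM are TMM-scaled unless given as library checks. SE are those of the log2 fold change. Counts were also drawn with known changes, placed only in genes of high count. In these, 56% of changes of 1.5-fold and 100% of 2-fold were called, with 6 false calls among 13755 genes. The drawn counts held no library that stands apart and no trend with GC content or length. These shares therefore do not give the power or the false calls of the real comparison.

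The 37 gene lists, the members and the tests were chosen with earlier results of these data known. Genes named are Trim63, the 12 called genes that rose most and the 12 that fell most among those whose mean log2 CPM was 0 or above (clone names passed over), the 3 lowest p of each list, and at most 5 called genes of each interaction. Further list members and genes kept in all alternatives were named after their values were seen. A few genes that this rule names are not reported here. Alternatives were DESeq2 1.42.0, 2 other scalings, 2 other filters, fewer groups, grouping by own titles, each of the 7 libraries left out, a replicate block, a GC offset, no mitochondrial genes and no libraries high in Krt10. A joint GC and length offset was added after the data were seen. The detection floor covers counting error only, while SE and SD include the spread between animals.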

Additional observations from a re-analysis of the deposited data

Results flagged for a closer look

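Odf3l2 had 1 chow library far from the others: 7.05 CPM in replicate 1 against 2.48, 3.03 and 3.10 in replicates 2, 3 and 4. The gap was 0.863 of the group's range, above the critical value of Dixon's test for 4 samples. It was the only such case among 37 values tested. Chance flags about 1 in 20 of the values tested, so 1 case in 37 is no more than chance gives.

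The diet effect differed between female knockouts and female wild types in 2 genes, Ppp1r3c and Leo1, by 1.35 and 0.88 on the log2 scale (edgeR's quasi-likelihood test, adjusted p = 0.0482 for both). It differed between female and male knockouts in 4800 genes. Among the 5 with the smallest p were Tmem52, Ddr2, Mybph and Eef1a2, with log2 differences of 1.55, -2.22, 2.99 and 1.27. Tmem52 was at 39.8 ± 5.43 CPM on chow and 70.2 ± 11.9 CPM on the high-fat diet in the females, and at 53.0 ± 5.84 and 32.0 ± 2.45 CPM in the males (SD, n = 4 on chow and 3 on the high-fat diet).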

How the results depend on the processing

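The 2688 called genes of the female knockouts became 270 to 3123 when 1 of the 7 libraries was left out (270 without f_ko_hfd replicate 2, 1566 and 1585 without chow replicates 1 and 3), 106 without the libraries high in Krt10 and 1412 with the GC and length offset. The other settings gave 1911 to 3855. The 3855 came from grouping all libraries by own title, which puts f_wt_chow replicate 4 and f_wt_hfd replicate 4 among the female knockouts. Their Trim63 stood at 221 and 119 CPM, within the wild type range. The 4800 genes that differed by sex became 2812 to 5017 when 1 library was left out and 2849 without the libraries high in Krt10. They became 4338 with the GC offset and 3399 with the GC and length offset. The 2 genes that differed by genotype became 18 with DESeq2, 1 of the 2 with the GC offset and with the GC and length offset, 1 other gene and neither of the 2 with the replicate block, and 0 with edgeR with no count filter (884 at an unadjusted p below 0.05), with agreeing own titles (914), with all libraries grouped by own title (1451), after removal of the libraries high in Krt10 (527) and with any of the 7 libraries left out (558 to 855). Replicate numbers did not pair the animals (correlations of 0.0503, -0.0352 and 0.064, and only pair 1 matched best), and the replicate block gave 2619 genes. Among 128 named genes, 5 changed sign in some setting: of the called ones Neb and Cmya5, to 0.0745 and 0.0722 with the GC and length offset, and of those not called Trim63, Myh7b and Jchain. Of the 108 called, 15 kept the call in all 22 settings. The causes were not tested. At this depth a gene under 0.217 CPM cannot be told from absent.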

Other observations

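Over all genes, 65 were called in the same direction in all 22 alternatives, among them list members such as Per3, Cry1, Casq1 and Pkm. The genes named here were picked from the 65 after their values were seen. Among the 32 that were higher were Acta1, the main skeletal actin gene (log2 fold change 0.69), Klhl31, a muscle gene of the Kelch family (0.64), Smtnl2 (1.03), Zhx2 (1.04) and Eef1a2, the translation factor of mature muscle (0.70). Among the 33 that were lower were Idh1, the cytosolic isocitrate dehydrogenase (-0.94), Fnip1, a folliculin partner (fell by 0.996), Fzd4, a WNT receptor (-1.35), Il33, an alarmin gene (-1.25), Sp1, a general transcription factor (-0.76), and Atp8b1 (-1.57). All were tested with edgeR's quasi-likelihood test, and the largest adjusted p among the 65 was 0.00354, for BC005561.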
